A study of Homo sapiens with 24 samples.

Results

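The SNHG genes and GAS5 are long non-coding RNA (lncRNA) genes whose introns carry small nucleolar RNAs (snoRNAs), and 10 of them are described here: SNHG1, SNHG3, SNHG5, SNHG6, SNHG7, SNHG8, SNHG12, SNHG15, SNHG16 and GAS5. Every lncRNA interval with a member's name was taken from the deposited small RNA table, and the window of the same table row was taken from the deposited ATAC table. This gave 195 of the 175946 annotated intervals, or 195 of the 155223 lncRNA intervals. GAS5 contributed 46 of them, SNHG1 36, SNHG5 30, SNHG15 22, SNHG16 19, SNHG12 16, SNHG7 11, SNHG6 7, SNHG8 5 and SNHG3 3. Intervals of a gene overlap one another and share reads, so they are not independent.

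The cells were wild-type HEK293, an established line from human embryonic kidney, in which a protein was overexpressed. The control group (GFP below) overexpressed eGFP, a fluorescent protein, and the other 3 groups overexpressed the nuclear lamins LMNA, LMNB1 or LMNB2, filament proteins of the inner nuclear envelope. All groups share the HEK293 background, and each had 3 replicates in each of 2 assays: small RNA-seq on total RNA enriched for small RNA, and ATAC-seq, which counts fragments cut from open chromatin by a transposase. The series' title sets the work in the field of RNA polymerase III and nuclear organisation, and the comparisons ask how host counts and host accessibility in a lamin group differed from GFP and from the other lamin groups. Nothing in the labels says that replicates came from separate cultures, so p-values measure the spread between these libraries, which may be technical, and in bulk samples a change in cell makeup and a change in RNA per cell cannot be told apart.

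A snoRNA host gene is transcribed by RNA polymerase II, its spliced exons form a lncRNA or are degraded, and its introns are trimmed to release stable snoRNAs. Box C/D snoRNAs (named SNORD) guide 2′-O-methylation of ribosomal RNA, and box H/ACA snoRNAs (named SNORA) guide its pseudouridylation. Many host transcripts begin with a run of pyrimidines, the 5′ terminal oligopyrimidine tract known from mRNAs of ribosomal proteins. In a small RNA library the reads of such a gene come mostly from its snoRNAs, so a host interval's count is a sum over everything nested in it.

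Total counts, summed over all intervals or windows, ran from 132507051 to 195074742 per small RNA library and from 156043245 to 290158229 per ATAC library. Reads in overlapping intervals enter these totals more than once, so the totals are not numbers of sequenced reads. Levels scaled by them are not per sequenced read either. The 10 main intervals, defined for each gene as the interval that best matched its RefSeq gene, held 1.21% to 1.68% of small RNA totals. Their genes' other overlapping intervals enter the same totals, so the share of all member intervals was larger. The GFP small RNA libraries were spread widely for hosts of C/D snoRNAs: relative to the GFP mean, the median log2 level of the 5 hosts that carry only C/D snoRNAs in their counted sums was 0.72 in GFP replicate 1, −0.13 in replicate 2 and −0.70 in replicate 3. The same median stayed within −0.10 to 0.08 in LMNA, within −0.24 to −0.20 in the LMNB1 libraries and within −0.40 to −0.23 in those of LMNB2. For LMNB2 the counts of host intervals and the medians of snoRNA classes are therefore also given without GFP replicate 1 and without replicate 3. Levels of the lamins themselves and markers of HEK293 were not analysed here.

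RefSeq (GRCh38.p14) promoter windows, of 250 bases before to 50 after the start, were used for 8 of the 10 genes (not for SNHG6 or SNHG15). The 4 printed here show the range of annotated starts among these 8 genes, from a long pyrimidine run to none. The first 12 transcribed bases are in capitals. All sequences read 5′ to 3′ on the gene's strand, which is the minus strand for each.
SNHG12 (chr1:28581824-28582123): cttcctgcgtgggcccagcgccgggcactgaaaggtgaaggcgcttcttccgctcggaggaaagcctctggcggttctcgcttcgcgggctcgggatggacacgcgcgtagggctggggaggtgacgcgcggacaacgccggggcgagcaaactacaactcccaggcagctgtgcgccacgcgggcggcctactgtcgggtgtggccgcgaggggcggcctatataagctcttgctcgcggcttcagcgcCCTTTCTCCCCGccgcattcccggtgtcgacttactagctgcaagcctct
SNHG5 (chr6:85678684-85678983): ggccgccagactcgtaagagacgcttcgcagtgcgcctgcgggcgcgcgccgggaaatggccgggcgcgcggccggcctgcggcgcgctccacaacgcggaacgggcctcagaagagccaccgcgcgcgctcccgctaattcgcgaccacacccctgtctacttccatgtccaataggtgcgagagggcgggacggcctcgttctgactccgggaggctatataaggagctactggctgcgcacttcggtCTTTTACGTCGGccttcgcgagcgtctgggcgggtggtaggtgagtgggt
SNHG7 (chr9:136728135-136728434): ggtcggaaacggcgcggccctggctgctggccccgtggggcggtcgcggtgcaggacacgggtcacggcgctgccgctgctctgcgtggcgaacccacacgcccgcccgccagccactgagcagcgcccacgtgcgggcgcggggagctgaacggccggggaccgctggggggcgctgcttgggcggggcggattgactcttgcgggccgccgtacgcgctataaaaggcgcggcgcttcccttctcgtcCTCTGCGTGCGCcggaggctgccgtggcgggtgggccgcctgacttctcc
GAS5 (chr1:173868996-173869295): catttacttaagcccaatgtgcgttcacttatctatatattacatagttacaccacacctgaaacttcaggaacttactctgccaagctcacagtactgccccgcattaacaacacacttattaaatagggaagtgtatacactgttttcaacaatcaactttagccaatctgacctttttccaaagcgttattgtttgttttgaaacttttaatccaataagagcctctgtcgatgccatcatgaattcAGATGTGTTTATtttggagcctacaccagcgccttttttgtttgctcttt
The SNHG12 transcript opened with 11 C or T letters, SNHG5 with 5, SNHG7 with 4 and SNHG1 with 3, while the annotated starts of GAS5, SNHG3 and SNHG16 opened with another base. A start on C with a run of at least 5 pyrimidines was present in 2 of the 8 members and in 4.07% of all 35116 RefSeq promoters. A run of that kind beginning within 10 bases of the start was present in 5 of the 8 and in 33.5% of all. The motif CACGTG, an E-box that MYC can bind, was found on either strand in 1 of the 8, SNHG7, at 122 bases before the start, against 7.26% of all promoters. TATAAA, the TATA box core, was searched for as exact letters on either strand and found in 2 of the 8, against 11.5%. In SNHG7 it lay 30 bases before the start, and in SNHG1 on the opposite strand inside the transcribed part. The near match TATATAAG, seen before the start in the printed SNHG12 and SNHG5 windows, was not counted. CCGGAAG, an ETS-type motif, was found in 0 of the 8 against 10.3%. None of these 3 motifs overlapped another in these windows. The GAS5 window had a GC content of 37.7% and the SNHG7 window 75.3%, with a median of 58.7% over all promoters. The GAS5 values describe the outer annotated start only. Its densest ATAC window, given below, had its 5′ end 1031 bp inside that start.

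GAS5, named for its accumulation in growth-arrested cells, had the highest small RNA level per length. On the counts-per-million (CPM) scale, with TMM-scaled library sizes, and per kilobase of interval, its mean over 12 libraries was 1708, followed by SNHG1 at 1253, SNHG5 at 205, SNHG12 at 22.1, SNHG16 at 18.8 and SNHG6 at 12.2. The H/ACA hosts were lower, with 1.5 CPM per kb for SNHG15, 0.963 for SNHG3, 0.713 for SNHG7 and 0.238 for SNHG8. Over libraries the ranges of GAS5 and SNHG1 overlapped, as did those of SNHG12 with SNHG16, SNHG16 with SNHG6, SNHG15 with SNHG3 and SNHG3 with SNHG7, so these neighbours are not separated. SNHG5 reached at most 407, under the SNHG1 minimum of 767, and stayed above SNHG12. SNHG6 did not fall under 8.44, above the SNHG15 maximum of 1.94, and SNHG8 reached at most 0.328, under the SNHG7 minimum of 0.436.

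Nearly all of these counts belonged to the nested snoRNAs. The main intervals held 36 small RNA features: 25 C/D snoRNAs, 10 H/ACA snoRNAs and 1 other feature. SNHG1 (chr11:62851961-62855911, minus strand) held 8 C/D snoRNAs, SNORD22 and SNORD25 to SNORD31, and their counts came to 99.986% to 99.996% of its own. In GAS5 (chr1:173863858-173869031, minus strand), with 10 C/D snoRNAs, the share was 99.995% to 99.998%. The range was 99.868% to 99.944% for SNHG5, 99.5% to 99.7% for SNHG16, 99.6% to 99.7% for SNHG12 and 99.2% to 99.8% for SNHG6. It was 94.0% to 97.6% for SNHG15, 92.2% to 95.7% for SNHG3, 88.2% to 95.5% for SNHG7 and 50% to 78.9% for SNHG8.

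After the snoRNA counts were taken off, the 10 hosts lay close together. Between 4 and 113 counts per library remained, with medians from 13.0 for SNHG8 to 94.0 for SNHG16. GAS5, with 1007961 to 1938015 counts per library in full, kept 30 to 58, and SNHG1 kept 46 to 88. Per kilobase outside snoRNAs this was 0.0549 CPM for SNHG6 to 0.218 CPM for SNHG5. The snoRNA features reached 25 bp beyond the RefSeq gene on both sides, within 1 bp, for 32 of the 35 with a RefSeq entry, so reads at snoRNA edges are mostly inside them. No remainder passed the quasi-likelihood test of edgeR after Benjamini-Hochberg adjustment in any comparison. At an unadjusted p under 0.05 there were 0 of 10 in LMNA, 0 in LMNB1, 2 in LMNB2 and 2 in the joint test of the lamins, near the 19.9% and 16% of all features in the last pair. The smallest adjusted p was 0.124, for SNHG3 in LMNB2 (log2 fold change 0.57 ± 0.20 SE).

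**Figure D1:**
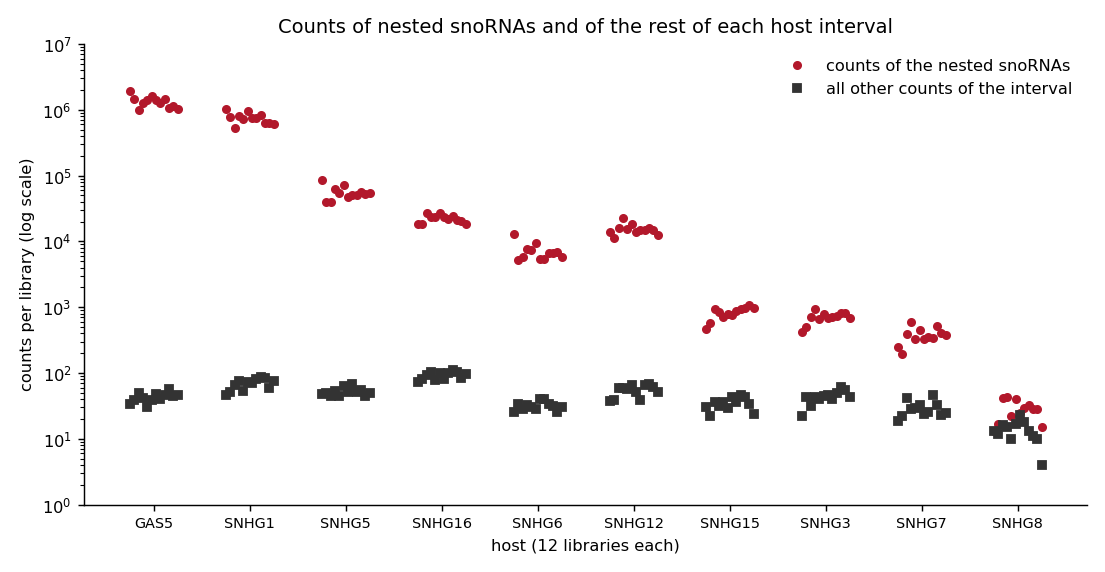
Counts of nested snoRNAs (circles) and all other counts of the interval (squares) for each host, with 12 libraries side by side in the order GFP, LMNA, LMNB1, LMNB2 and a log axis of counts per library. The circles are highest for GAS5 and lowest for SNHG8, while the squares of all 10 hosts lie between 4 and 113.

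Within a host, single snoRNAs differed by orders of magnitude. SNORD44 made up 67.2% to 79.3% of GAS5 counts and SNORD81 16% to 25.5%, with mean counts of 962345 and 280557, whereas SNORD77 in the same gene had a mean of 92.4. SNORD29 made up 61.4% to 76.5% of SNHG1, ahead of SNORD30 (10.9% to 18.2%) and SNORD26 (3.75% to 8.21%). SNORD50A made up 78.4% to 91.2% of SNHG5, with SNORD50B as its second snoRNA, and SNORD87 was the only one in SNHG6. SNHG16 was more even, with medians of 41.7% for SNORD1A, 29.8% for SNORD1B and 27.3% for SNORD1C. Among the H/ACA hosts, SNORA73A led SNORA73B in SNHG3, SNORA17B led SNORA17A in SNHG7, and SNHG15 and SNHG8 each held a single snoRNA, SNORA9 and SNORA24. SNHG12 was the only main interval whose counted sum mixed the classes: SNORD99 made up 58.8% to 74.9% and the H/ACA snoRNAs SNORA61, SNORA44 and SNORA16A the rest. GAS5 also overlapped the H/ACA feature SNORA103 (mean count 79.5), which overlaps SNORD77, shares its reads and was left out of the sum.

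GAS5, SNHG1, SNHG5 and SNHG6 varied far more within GFP than in any lamin group. GAS5 had 16648, 10836 and 5678 CPM in GFP replicates 1, 2 and 3, against 7911, 9612 and 9560 in LMNA, 8522, 7684 and 8551 for LMNB1, and 6462, 7287 and 7312 in LMNB2. SNHG1 had 8794, 5790 and 3031 CPM in GFP, 5009, 5011 and 5539 in LMNA, 4590, 4660 and 4918 for LMNB1, and 3743, 4003 and 4335 in LMNB2. All 9 lamin libraries lay inside the GFP range for both genes. SNHG5 had 729, 288 and 222 CPM in GFP and 282 to 421 across the lamin libraries, and SNHG6 had 112, 39.2 and 33 in GFP and 33 to 55.5 across them. The highest GFP library was 2.93 times the lowest for GAS5, 2.90 for SNHG1, 3.29 for SNHG5 and 3.40 for SNHG6, while in the lamin groups this ratio stayed between 1.07 and 1.22 for these 4 genes. The SNHG16 sum did not share the spread, with 157, 135 and 152 CPM in GFP, but its snoRNAs differed there in unlike orders. In GFP replicates 1, 2 and 3 SNORD1C had 65.4, 29.8 and 33.2 CPM, SNORD1B 40.0, 37.7 and 63.8, and SNORD1A 51.2, 67.1 and 54.6.

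**Figure D2:**
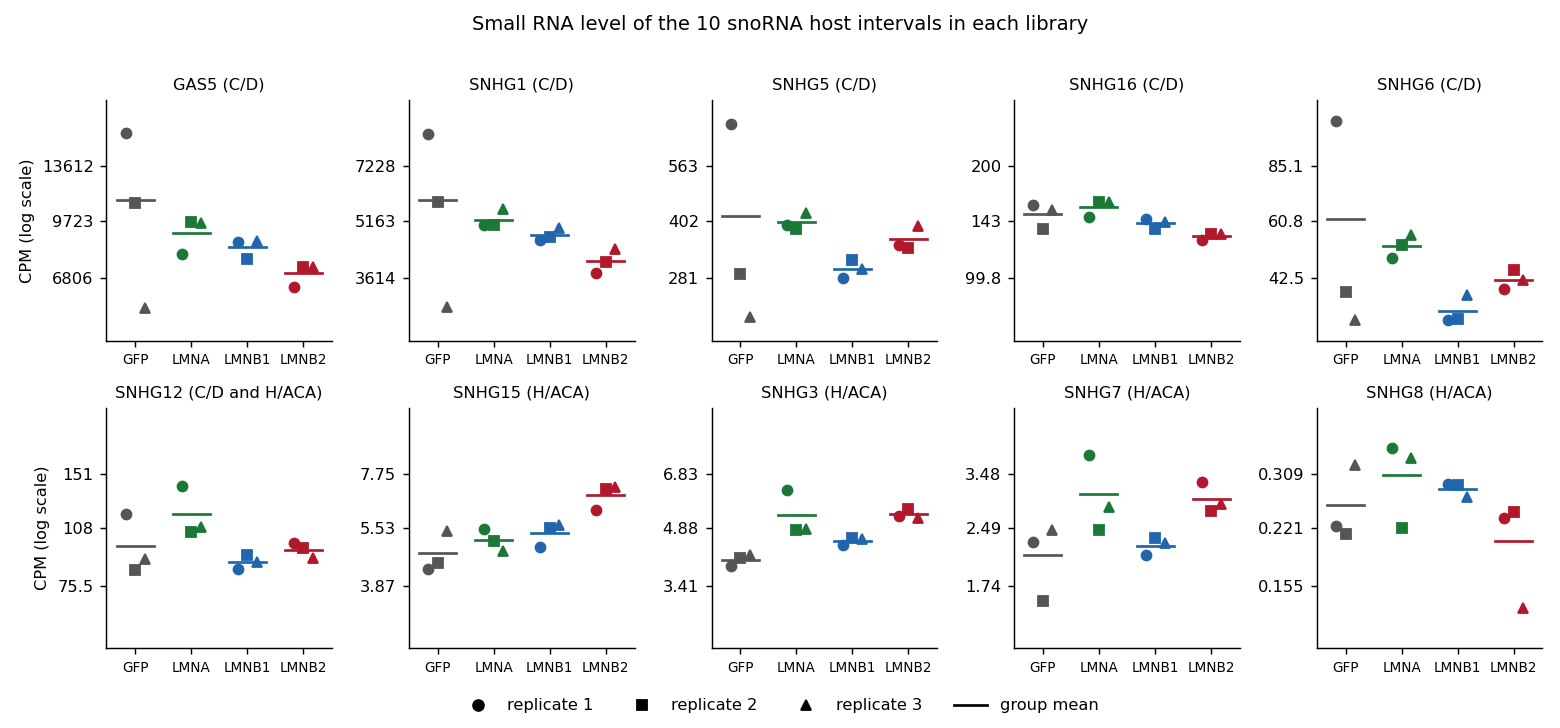
Small RNA CPM of each host's main interval in the 12 libraries, on log axes that cover the same fold range in every panel; symbols mark replicates and lines the group means. GAS5, SNHG1, SNHG5 and SNHG6 have GFP replicate 1 highest and GFP replicate 3 lowest, and the lamin libraries of each group lie close together.

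The H/ACA hosts had other orders. SNHG3 had 3.86, 4.05 and 4.14 CPM in GFP, 6.17, 4.81 and 4.86 in LMNA, 4.38, 4.60 and 4.57 for LMNB1, and 5.26, 5.5 and 5.18 in LMNB2, so all 9 lamin libraries lay above all GFP libraries. SNHG7 had 2.29, 1.59 and 2.46 CPM in GFP, 3.90, 2.46 and 2.82 in LMNA, 2.1, 2.34 and 2.26 for LMNB1, and 3.30, 2.76 and 2.88 in LMNB2. SNHG15 had 4.30, 4.47 and 5.45 CPM in GFP and 6.18, 7.03 and 7.13 in LMNB2, with no overlap, and 4.81 to 5.64 across LMNA and LMNB1. SNHG8 was near the limit of counting at 0.13 to 0.36 CPM, or 19 to 58 counts, with overlapping groups throughout. Relative to the GFP mean, the median log2 level of SNHG3, SNHG7, SNHG8 and SNHG15 was 0.18 to 0.57 in LMNA, 0.10 to 0.20 in LMNB1 and 0.39 to 0.43 in LMNB2, and −0.15 to 0.23 in GFP itself. It was not GFP replicate 1 but replicate 3 that was highest in this class.

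**Figure D3:**
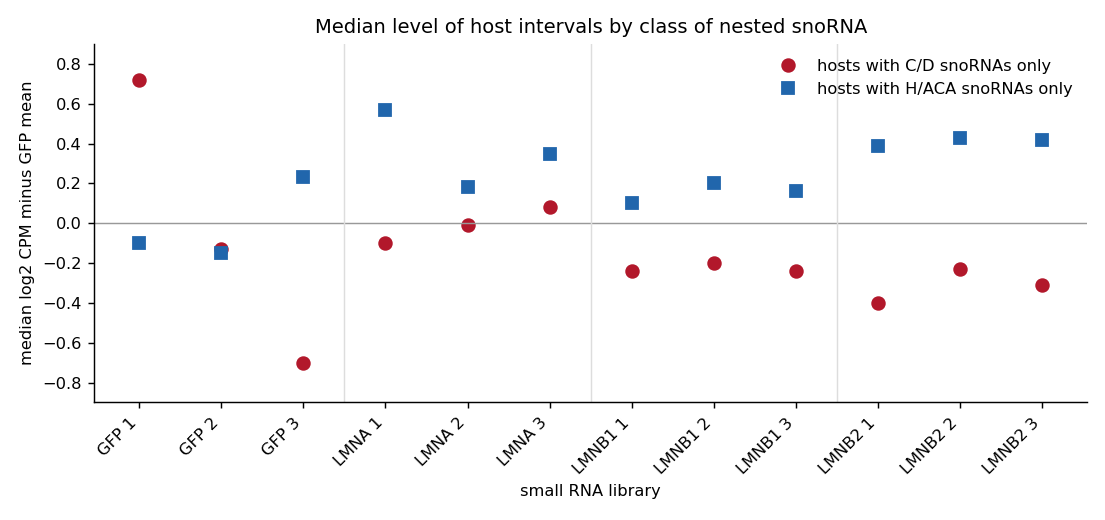
Median log2 CPM minus the GFP mean over the hosts with only C/D snoRNAs in their sums (circles: GAS5, SNHG1, SNHG5, SNHG6, SNHG16) and with only H/ACA snoRNAs (squares: SNHG3, SNHG7, SNHG8, SNHG15), for each small RNA library. The circles run from 0.72 to −0.70 within GFP and from −0.40 to −0.23 in LMNB2, where the squares lie between 0.39 and 0.43.

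Against GFP, none of the members passed in LMNA or LMNB1, and 1 rose in LMNB2. The quasi-likelihood test of edgeR was fitted on all 12 libraries, with Benjamini-Hochberg adjustment over the 33893 features that passed the count filter, 187 of them members. The other 8 member intervals, 1 of SNHG5 and 7 of SNHG15, held no snoRNA and were too low to test. In LMNA 0 of 187 intervals passed at an adjusted p under 0.05, as did 0% of all features, 15 of 187 had an unadjusted p under 0.05 (5.46% of all features), and DESeq2 also called 0. In LMNB1 0 of 187 passed, against 0.0384% of all features, with 7 at an unadjusted p under 0.05 (5.51% of all) and 0 by DESeq2. In LMNB2 1 of 187 passed, against 2.66% of all features in either direction, 1.91% higher and 0.752% lower, with 27 at an unadjusted p under 0.05 (19.9% of all).

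Main intervals of both classes fell short of the threshold. In LMNB2 the log2 fold change was −0.65 ± 0.33 (SE) for GAS5, −0.54 ± 0.32 for SNHG1, −0.54 ± 0.34 for SNHG6 and −0.21 ± 0.34 for SNHG5, with adjusted p from 0.276 to 0.779. It was 0.52 ± 0.18 for SNHG15, 0.50 ± 0.21 for SNHG7 and 0.40 ± 0.18 for SNHG3, with adjusted p of 0.135, 0.194 and 0.221. SNHG8 had −0.31 ± 0.25, SNHG16 −0.19 ± 0.21 and SNHG12 −0.03 ± 0.22. The median over the 10 was 0.09 in LMNA, −0.11 in LMNB1 and −0.20 in LMNB2, beside −0.05, −0.05 and −0.04 over all features tested. All LMNB2 libraries lay above all GFP libraries for SNHG3, SNHG7 and SNHG15 and below them for SNHG16, where 12.1% and 10.2% of all features did so. In LMNA this held for SNHG3 and SNHG7 (above, 4.16% of all features) and in LMNB1 for SNHG3 (above, 4.76%), and no host lay below GFP in these groups, where 5.34% and 5.29% of all features did.

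The LMNB2 counts changed most when GFP replicate 3 was left out. Without it, 91 of 187 member intervals passed the same test, 70 lower and 21 higher, against 5.82% of all features, 1.85% lower and 3.97% higher. Those lower were 43 GAS5 and 27 SNHG1 intervals, and those higher were 13 of SNHG15, 7 of SNHG7 and 1 of SNHG12. The GAS5 main interval then had a log2 fold change of −0.92 (adjusted p 0.0109) and SNHG1 −0.81 (adjusted p 0.0184). Without GFP replicate 1, 1 member interval passed, the SNHG12 interval described next, against 3.71% of all features (1.57% higher, 2.14% lower). GAS5 and SNHG1 were then at −0.25 (adjusted p 0.591) and −0.14 (adjusted p 0.771), while SNHG5 and SNHG6 changed sign to 0.48 and 0.22. SNHG15 was 0.68 (adjusted p 0.0166) without replicate 3 and 0.44 (adjusted p 0.203) without replicate 1. DESeq2 on all libraries called 15 of 187 in LMNB2, all higher, namely 13 of SNHG15 and 1 each of SNHG3 and SNHG12, against 3.52% of all features in either direction, 1.85% higher and 1.67% lower.

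The SNHG12 interval that rose in LMNB2 covers the gene's 5′ part (chr1:28580333-28581897, minus strand) and holds SNORA44 and SNORA16A, which made up 98.5% to 99.4% of its counts. It had 14.2, 9.75 and 10.6 CPM in GFP, 16.6, 14.4 and 15.1 in LMNA, 12, 14.1 and 13.0 for LMNB1, and 18.8, 21.5 and 19.8 in LMNB2. LMNB2 lay above every other library. The log2 fold change against GFP was 0.80 ± 0.20 (SE, n = 3 against 3), and edgeR gave an adjusted p of 0.0433. The value stayed positive, 0.64 to 1.07, in all 21 alternatives, while the call held in 6 of them, with adjusted p from 0.000397 to 0.186. It was lost without GFP replicate 2 and without any 1 of the LMNA, LMNB1 or LMNB2 libraries. The longer SNHG12 main interval, in which SNORD99 is the largest part, had a value of −0.03 in the same comparison.

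Of the snoRNAs nested in this host, 1 rose. SNORA16A, an H/ACA snoRNA of SNHG12 (chr1:28580894-28581079), had 5.57, 5.04 and 4.57 CPM in GFP, 6.48, 6.73 and 7.07 in LMNA, 6.76, 6.73 and 7.16 for LMNB1, and 9.85, 12.4 and 11.3 in LMNB2. Every lamin library lay above every GFP library, and every LMNB2 library above all others. The LMNB2 log2 fold change was 1.14 ± 0.19 (SE) with an edgeR adjusted p of 0.00764, and 19 of 21 alternatives kept the call, with adjusted p from 1.6e-12 to 0.0944. The call was lost without LMNB2 replicate 2 (log2 fold change 1.06) and with only the GFP and LMNB2 libraries in the fit. In LMNA and LMNB1 it was 0.42 ± 0.18 and 0.44 ± 0.18, with adjusted p of 0.895 and 0.861. Its neighbours in the gene did not pass: SNORA44 had 0.45 ± 0.23 in LMNB2, SNORA61 0.10 ± 0.20 and the C/D snoRNA SNORD99 −0.27 ± 0.23.

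SNORA17A of SNHG7 also rose in LMNB2. It had 0.550, 0.470 and 0.631 CPM in GFP, 1.02, 0.649 and 0.778 in LMNA, 0.803, 0.710 and 0.702 for LMNB1, and 1.15, 1.11 and 1.03 in LMNB2. The lowest LMNB2 library lay just above the highest LMNA library and well above GFP. The log2 fold change was 0.98 ± 0.18 (SE) with an edgeR adjusted p of 0.0128, and 16 of 21 alternatives kept the call, with adjusted p from 0.000353 to 0.074. Leaving out LMNB2 replicate 2 or replicate 3 ended this call. So did total counts as the only scaling, a fit with only the GFP and LMNB2 libraries, and a threshold of 0.01. SNORA17B, its larger neighbour in the same gene, had 0.31 ± 0.22 and did not pass, and the share of SNORA17A in SNHG7 counts was 26.5% in GFP and 37.0% in LMNB2.

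By class, 2 of the 10 nested H/ACA snoRNAs and 0 of the 25 nested C/D snoRNAs passed in LMNB2. Of all features 2.66% did, 1.91% higher and 0.752% lower. The median LMNB2 log2 fold change was 0.39 for the nested H/ACA snoRNAs, with 8 positive and 2 negative. It was −0.47 for the nested C/D snoRNAs, with 2 positive and 23 negative, and −0.04 over all features tested. Among snoRNAs outside these hosts, the median was 0.24 over 120 H/ACA features (11 called higher, 1 lower) and −0.15 over 166 C/D features (7 called higher, 1 lower). In LMNB1 the nested medians were 0.03 for H/ACA and −0.38 for C/D, beside 0.03 and −0.16 for snoRNAs outside these hosts. In LMNA the nested medians were 0.41 and −0.07, beside 0.40 and 0.15 outside, so the H/ACA values were alike in both sets. The nested C/D values depended on the GFP libraries. Without GFP replicate 1 their LMNB2 median was −0.07, with 9 positive and 16 negative, and the LMNB1 and LMNA medians changed sign, to 0.04 and 0.40. Without GFP replicate 3 the LMNB2 median was −0.54 and 8 of the 25 passed, all lower, against 5.82% of all features (1.85% lower). These were SNORD27, SNORD28, SNORD29, SNORD44, SNORD47, SNORD78, SNORD79 and SNORD81. With total counts as the scaling the nested C/D median in LMNB2 was −0.09, with 10 positive and 15 negative. Such totals include these snoRNAs and the overlapping rows of their hosts. The nested H/ACA median in LMNB2 was 0.41 without GFP replicate 1 and 0.46 without replicate 3. C/D snoRNAs elsewhere also differed between GFP libraries, with a median level of 0.45, −0.20 and −0.22 in replicates 1, 2 and 3.

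**Figure D4:**
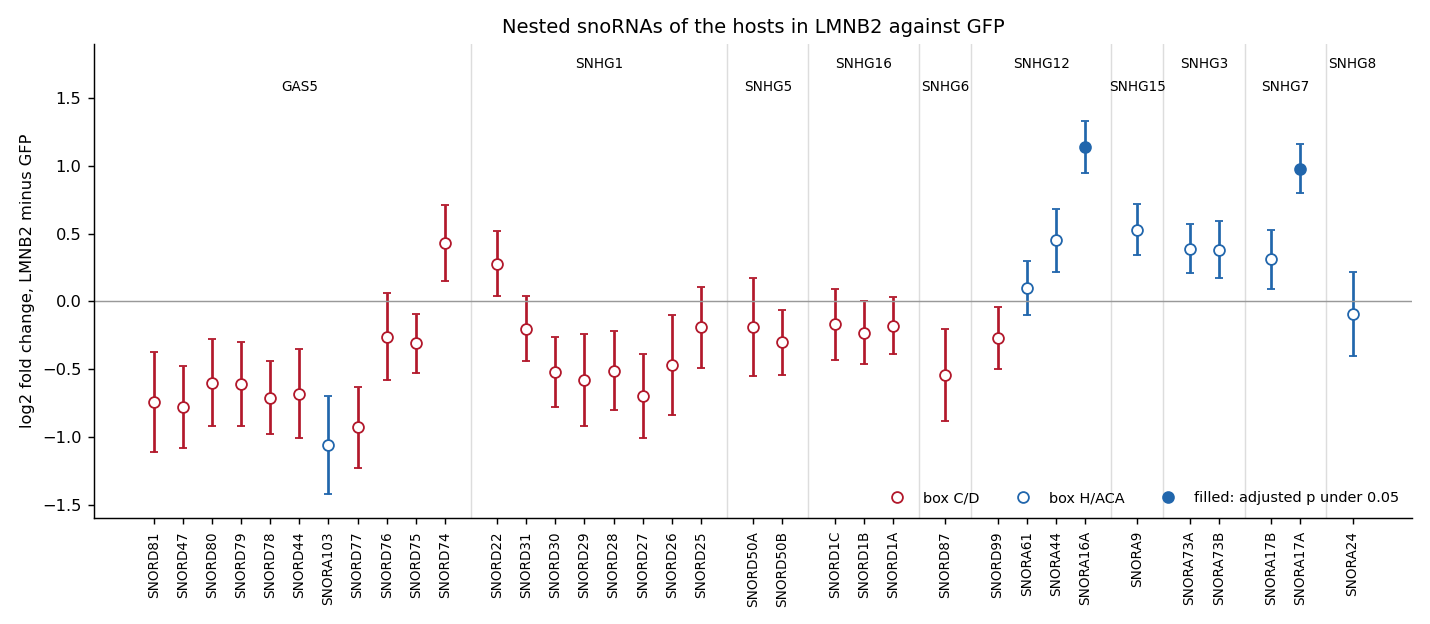
Log2 fold change of each nested snoRNA in LMNB2 against GFP with its standard error, grouped by host and coloured by class; filled points passed edgeR's quasi-likelihood test at an adjusted p under 0.05. The filled points are SNORA16A at 1.14 and SNORA17A at 0.98, and 23 of the 25 C/D points lie under 0, a count that falls to 16 without GFP replicate 1.

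GAS5 snoRNAs did not all follow the host. SNORD44, which dominates the gene, had 11587, 8594 and 4002 CPM in GFP and 4598 to 5300 in LMNB2. SNORD74, near the gene's 5′ end, had 176, 169 and 277 CPM in GFP, 518, 301 and 290 in LMNA, 270, 272 and 244 for LMNB1, and 321, 278 and 237 in LMNB2, with GFP replicate 3 as the highest GFP library and not the lowest. The LMNB2 log2 fold change was −0.68 ± 0.33 (SE) for SNORD44, −0.74 ± 0.37 for SNORD81 and 0.43 ± 0.28 for SNORD74, none past the threshold with all libraries. Without GFP replicate 3, SNORD44 was at −0.96 (adjusted p 0.00718) and SNORD81 at −1.03 (adjusted p 0.0399), and both passed. SNORD77 and the overlapping SNORA103, at fewer than 200 counts per library, had −0.93 ± 0.30 and −1.06 ± 0.36 with adjusted p of 0.116 and 0.132, and both passed with no count filter (0.00151 and 0.000153 adjusted p) and with the replicate block (0.031 and 0.0239).

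Among the lamins, no host interval passed in the joint test that used all 12 libraries, but most did once the GFP libraries were left out of the fit. The test of LMNA, LMNB1 and LMNB2 against each other called 0 of 187 members with the shared spread (1.93% of all features, 3 members and 16% of all features at an unadjusted p under 0.05, 0 members by DESeq2). Fitted on the 9 lamin libraries alone, where the biological coefficient of variation was 0.158 and not 0.227, edgeR's quasi-likelihood test called 144 of 187, against 12% of all features. These were all 36 intervals of SNHG1, 43 of 46 of GAS5, 26 of 29 of SNHG5, 16 of 16 of SNHG12, 7 of 7 of SNHG6 and 13 of 15 of SNHG15, with 2 of SNHG7, 1 of SNHG16 and 0 of SNHG3 and SNHG8. Leaving out single lamin libraries gave 44 to 131 calls, and 5.73% to 13.1% of all features. The lowest count, 44 with 5.73% of all features, was without LMNB2 replicate 2. The count was 61 (7.57%) without LMNB2 replicate 1, 68 (9.24%) without LMNB1 replicate 1 and 68 (8.77%) without LMNB1 replicate 3. With total counts as the only scaling it was 62, while 12.8% of all features passed. Those totals include the members' own overlapping rows.

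In that fit 6 of the 10 main intervals passed, against 12% of all features, in 3 orders of the groups. GAS5 and SNHG1 were lowest in LMNB2, at −0.36 relative to LMNA for both on the log2 scale and −0.23 relative to LMNB1, with adjusted p of 0.0207 and 0.0132. SNHG5, SNHG6 and SNHG12 were lowest in LMNB1, at −0.42, −0.57 and −0.43 relative to LMNA, with adjusted p of 0.0132, 0.00303 and 0.0224. SNHG15 was highest in LMNB2, at 0.40 relative to LMNA and 0.34 relative to LMNB1, with an adjusted p of 0.0461. Scaling by total counts raised the median of all features in LMNB2 relative to LMNA to 0.20. There GAS5 and SNHG1 were at −0.13 and −0.14 (0.249 and 0.245 adjusted p), still below that median, while SNHG5 turned from −0.15 to 0.07. The many overlapping rows of GAS5 and SNHG1 are themselves part of each total, so this scaling is not an independent check on these genes. SNHG12 also lost its call there (−0.29 in LMNB1 relative to LMNA, adjusted p 0.28), which left SNHG5, SNHG6 and SNHG15 past the threshold, with adjusted p of 0.0486, 0.0394 and 0.0124. With DESeq2 size factors SNHG15 had an adjusted p of 0.0545 and did not pass.

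Both snoRNA classes held members that passed. In the fit without GFP, 14 of the 25 nested C/D snoRNAs and 5 of the 10 nested H/ACA snoRNAs passed, against 12% of all features. With TMM scaling all 25 C/D snoRNAs had a lower level in LMNB2 than in LMNA, with a median log2 difference of −0.38. C/D snoRNAs elsewhere lay the same way: with all 12 libraries in the fit, 127 of 166 were lower in LMNB2 than in LMNA. Their median was −0.31, beside −0.38 for the 25 nested ones in that fit. Single snoRNAs were not tested in the fit without GFP under total counts. There the median of all features in LMNB2 relative to LMNA was 0.20, and SNHG5, a sum of C/D snoRNAs, went from −0.15 to 0.07. In SNHG1, SNORD26 had 349, 371 and 377 CPM in LMNA, 224, 200 and 233 for LMNB1, and 259, 282 and 279 in LMNB2 (adjusted p 7.08e-05), and SNORD25 had 263, 240 and 273, then 158, 153 and 177, then 166, 181 and 179 (adjusted p 0.000116). The 3 groups of SNORD26 did not overlap, and for SNORD25 LMNA lay above both B-type lamins. SNORD29, the main snoRNA of the same gene, differed otherwise, with 0.01 for LMNB1 and −0.30 for LMNB2 relative to LMNA (adjusted p 0.0337). The H/ACA snoRNAs that passed were SNORA16A, SNORA17A, SNORA17B, SNORA44 and SNORA9, with LMNB2 minus LMNA values of 0.73, 0.43, −0.26, 0.04 and 0.41.

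No host window passed in any ATAC comparison. The ATAC window of an interval is 125 bp wider on each side, and its counts are fragments of open chromatin. GAS5 had 12.4, 13.5 and 11.3 CPM in GFP, 13.2, 13.6 and 14.4 in LMNA, 13.3, 13.8 and 11 for LMNB1, and 12, 12.2 and 11.5 in LMNB2. SNHG1 had 4.26, 4.39 and 3.68 CPM in GFP, 4.74, 4.64 and 4.52 in LMNA, 4.86, 4.55 and 4.22 for LMNB1, and 3.82, 4.26 and 4.16 in LMNB2. The groups overlapped for all 10 main windows against GFP except SNHG1 in LMNA, which lay above GFP, as did 4.81% of all windows (4.74% lay below). In LMNB1, 4.62% of all windows lay above GFP and 3.84% below, and in LMNB2 5.59% and 4.72%. The highest library was at most 1.38 times the lowest over all 12 libraries for each host, the largest ratio being that of SNHG6.

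**Figure D5:**
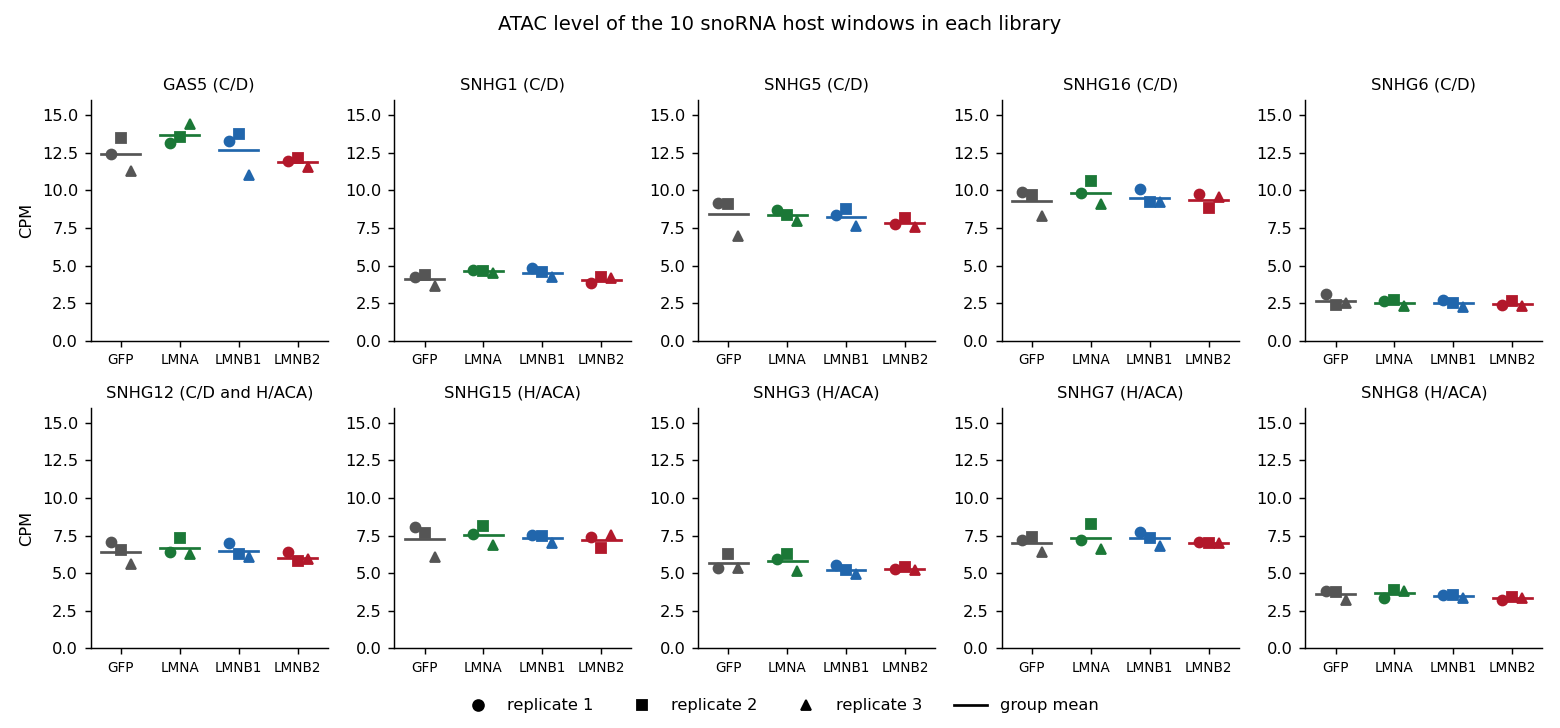
ATAC CPM of each host's main window in the 12 libraries on a common linear axis from 0; symbols mark replicates and lines the group means. GAS5 lies between 11 and 14.4 CPM and SNHG6 between 2.28 and 3.14, and the 4 group means of each gene lie close together.

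Of the 195 member windows, 0 passed in LMNA (0.000611% of all 163786 windows tested), 0 in LMNB1 (0.00305%), 0 in LMNB2 (0.00244%) and 0 in the joint test of the lamins (0.0916%), by edgeR with Benjamini-Hochberg adjustment over all windows. At an unadjusted p under 0.05 there were 27 in LMNA (5.19% of all windows), 3 in LMNB1 (4.78%), 2 in LMNB2 (5.72%) and 18 among the lamins (6.24%), and DESeq2 called 0 in each. Main windows had log2 fold changes of −0.13 to 0.18 against GFP, with standard errors of 0.07 to 0.11. SNHG1 in LMNA had the largest, 0.18 ± 0.08, with an adjusted p of 0.960, and GAS5 had 0.15 ± 0.07 in LMNA and −0.06 ± 0.07 in LMNB2. The smallest adjusted p of any member window was 0.552, among the lamins. GAS5 was −0.21 in LMNB2 relative to LMNA in ATAC (adjusted p 0.705), beside −0.36 in its small RNA counts, which are nearly all snoRNA. Its small remainder outside snoRNAs went the other way, at 0.45 (adjusted p 0.29 in edgeR's joint test of the lamins).

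ATAC counts were concentrated at the 5′ end in SNHG1, SNHG16 and SNHG15. For SNHG3, SNHG5, SNHG6, SNHG7 and SNHG8 the densest window covered 64.0% to 100% of the main window's width, so it does not place the counts closely. In SNHG1 the window of the interval at its start (chr11:62855542-62855910) had 5.38 CPM per kb and held 76.7% of the main window's counts in 14.7% of its width, and the sparsest SNHG1 window had 0.179. In SNHG16 the start window (chr17:76557743-76558485) had 6.59 CPM per kb and held 68.8% of the counts in 12.6% of the width. In SNHG15, 38.1% of the width held 92.4% of the counts. Of the 9 hosts with windows both with and without the RefSeq start, 8 had the higher median density with it, for example 1.11 against 0.350 CPM per kb for SNHG1 and 2.89 against 0.791 for SNHG5. The exception was SNHG12, with 1.35 against 1.54. All 7 SNHG15 windows without the start lay upstream of it, outside the gene, so that gene's comparison does not describe positions within it.

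For SNHG12 and GAS5 the densest window lay inside the gene as RefSeq draws it. The densest SNHG12 window was that of the interval called in small RNA, chr1:28580333-28581897, with 3.06 CPM per kb and 86.9% of the main window's counts in 38.3% of its width. Its 5′ end is 1086 bp inside the outermost RefSeq start, and the pyrimidine-rich promoter printed above starts its transcript at 28581873, within this window. The 500 bp flank beyond the outermost start had 0.0450 CPM per kb. The densest GAS5 window, that of chr1:173867645-173868014, had 8.97 CPM per kb and held 43.8% of the main window's counts in 11.4% of its width, with its 5′ end 1031 bp inside the RefSeq start. The outermost 1.03 kb of the main window had 6.15 CPM per kb (5.18 to 7.53 over libraries), and the 500 bp flank beyond had 0.0776. That stretch contains the RefSeq start, but its counts lay mostly on the gene side of it. The window of chr1:173863873-173868907, which stops short of that start, already had 12.60 CPM, against 12.68 in the main window. The density at the AT-rich start printed above is therefore not given by the 6.15. SNORD74, whose level did not follow SNORD44, lies inside the densest GAS5 window.

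Main windows were denser than their surroundings for most hosts. The ratio of the main window to the 500 bp flank, which begins 350 bp outside it, had a median of 4.14 upstream (0.533 to 30.1) and 3.91 downstream (1.23 to 15.9). GAS5 and SNHG12 had the highest upstream ratios, 30.1 and 30.0. SNHG16 and SNHG5 had upstream flanks of 2.27 and 4.06 CPM per kb, with the main window at 0.533 and 0.989 times the flank.

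A list of 20 other snoRNA host lncRNAs had 236 intervals, of which 188 were tested in small RNA and 235 in ATAC. In LMNB2, 3 overlapping intervals of SNHG17 rose and 1 of SNHG29 fell, 4 of 188 against 2.66% of all features. At an unadjusted p under 0.05 there were 81 of 188 in LMNB2, against 19.9% of all features, and these intervals overlap one another. By edgeR none passed in LMNA, in LMNB1 or among the lamins, where 35, 10 and 39 had an unadjusted p under 0.05, against 5.46%, 5.51% and 16% of all features. In ATAC none of 235 passed, with 8 in LMNA, 4 in LMNB1, 4 in LMNB2 and 9 among the lamins at that p, where 5.19%, 4.78%, 5.72% and 6.24% of all windows reached it. The longest called SNHG17 interval (chr20:38420562-38431091) had 6.13, 6.38 and 5.32 CPM in GFP and 9.87, 11.1 and 9.50 in LMNB2, a log2 fold change of 0.77 ± 0.19 (SE) with an edgeR adjusted p of 0.0362. The SNHG29 interval (chr17:16439030-16439730) had 12, 10.3 and 11.4 CPM in GFP and 5.11, 6.31 and 5.79 in LMNB2, −0.97 ± 0.25 with an adjusted p of 0.0466. Their main intervals had medians of 0.16 in LMNA, −0.07 in LMNB1 and −0.06 in LMNB2.

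The features outside the hosts whose small RNA level was most like the mean profile of the 10 main intervals were SNORD117 (Pearson r 0.985), the lncRNA interval lnc-ATP6V1G2-DDX39B-1 that contains it (r 0.98) and AC009292.2 (r 0.963), over 12 libraries that share depth and scaling. SNORD117, a C/D snoRNA, had 162, 82.3 and 82.8 CPM in GFP replicates 1, 2 and 3, 116 to 132 in LMNA, 92.3 to 93.6 in LMNB1 and 93.7 to 98.5 in LMNB2. Like the mean host profile, it was highest in GFP replicate 1 and higher in LMNA than in both B-type lamins.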

How the data were processed

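The deposited values are the authors' raw counts, 1 table per assay; the build is GRCh38 per the submitters' processing notes, and aligner, counter, strand use and handling of multi-mapping reads are not given in the sources used here, so overlapping features and near-identical snoRNA copies can share reads. Counts were fitted in edgeR 4.0.16 (R 4.3.3) with filterByExpr, TMM scaling, a mean per group, robust quasi-likelihood tests and Benjamini-Hochberg adjustment over all tested features, with a prior count of 2 for log2 fold changes and calls at an adjusted p under 0.05. Nested snoRNAs are snoRNA features wholly inside an interval; their counts were subtracted for remainders. The fit was tested on simulated data. Alternatives were DESeq2 1.42.0, other scalings and count filters, a replicate block, fewer libraries, each library left out and an adjusted p under 0.01. Members and lists were chosen with earlier results of these data known. Named features were the main intervals, called intervals, up to 3 nested snoRNAs per host by mean count, called other hosts and the 3 most similar features; SNORA44, SNORD25, SNORD77 and SNORA103 were singled out with their values known. The 9-library fit was planned, but its left-out libraries and scalings were added after seeing the data.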

Additional observations from a re-analysis of the deposited data

How the results depend on the processing

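Small RNA counts of called host intervals in LMNB2 went from 1 to 0 at an adjusted p under 0.01, with total counts only, with the replicate block and with only the libraries compared, and to 15 by DESeq2. Leaving out single libraries gave 0 to 91 in LMNB2, 0 to 1 in LMNA and 0 to 1 among the lamins. Among the lamins the count was 1 with nested snoRNA counts taken off and 144 with only the 9 lamin libraries, and that fit gave 62 with total counts only and 44 to 131 with single libraries left out. The median over the 10 main intervals became 0.06 (LMNB1) and 0.13 (LMNB2) when libraries were scaled by total counts, and 0.08 in both with nested counts taken off. With single libraries left out it was 0.05 to 0.28 in LMNA, −0.19 to 0.06 in LMNB1 and −0.34 to 0.17 in LMNB2. For ATAC the median became 0.20 (LMNB1) and 0.04 (LMNB2) under total-count scaling, beside 0.19 and 0.11 over all windows. It was −0.09 to 0.07 in LMNB1 with single libraries left out. Mitochondrial features held 39.9% to 47.5% of the ATAC counts in GFP and 39.4% to 44.1% in LMNA. They held 32.8% to 34.1% in LMNB1 and 24.5% to 30.7% in LMNB2. Total counts moved the median of all small RNA features to 0.11 in LMNB1 and 0.19 in LMNB2, and 99.6% of LMNB2 calls were then higher, against 71.7% with TMM. Small RNA totals include the overlapping rows of the hosts, so this scaling is not independent of them. Except for fits with fewer libraries, the cause was not tested. Replicate numbers gave no clear pairing of the samples. Same-numbered libraries correlated at −0.04 to 0.232 in small RNA, 5 of 9 best with their own number, and at −0.064 to 0.199 in ATAC, 4 of 9. The 5 include every LMNA library, at 0.053, 0.205 and 0.232, so a weak pairing is not excluded. Of 2898 single-feature small RNA values, 2711 kept their direction and call, as did 579 of 630 for ATAC. At 19 to 58 counts per library, depth limits SNHG8.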
